A study of Mus musculus with 2 samples.

Results

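The genes of 8 ion pumps, exchangers and chloride transporters were measured in pools labelled as layer 5 pyramidal neurons: Atp1b1, Atp2a2, Atp2b1, Atp2b2, Slc8a1, Slc8a2, Slc12a5 and Slc12a2. They were taken by symbol from a list of sodium-potassium pump, calcium pump, sodium-calcium exchanger and cation-chloride cotransporter genes, and all 8 were found among 43346 gene identifiers. There was 1 group of 2 libraries, labelled biological replicates 1 and 2. Each pooled 50 cells cut out by laser from wild-type male Mus musculus aged 8 months, and the labels name no treatment. The strain is given as B6NCrl in one label and as C57Bl5 and C57Bl6 in others, an antibody label reads Control, and both libraries carry the same donor. Whether they came from separate animals is therefore not known, and their spread may be only technical.

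A neuron holds its ion gradients with a few families of membrane proteins. The sodium-potassium pump, an alpha and a beta subunit, exchanges sodium for potassium at the cost of ATP and so restores what action potentials dissipate. Calcium that enters during firing leaves the cytosol through the plasma membrane calcium pumps (PMCA), the pump of the endoplasmic reticulum (SERCA) and the sodium-calcium exchangers (NCX), which spend the sodium gradient. Chloride is set by the cotransporter KCC2, which extrudes it, and by NKCC1, which takes it up, and their balance sets whether GABA-A receptors inhibit or excite.

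All 8 genes were detected in both libraries at 1 or more TPM, a level relative to the library's total and to transcript length, against 55.8% and 54.4% of 21474 protein-coding genes in replicates 1 and 2. The sodium-potassium pump beta subunit gene Atp1b1 was highest and the exchanger gene Slc8a2 lowest. The 3 calcium pump genes and the KCC2 gene lay between 62.9 and 226.9 TPM in each library, and the exchanger and NKCC1 genes lay at or below 13.3 TPM. Together the 8 genes held 0.536% of the gene reads in replicate 1 and 0.564% in replicate 2.

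The libraries held 24171434 and 27946180 estimated reads, and 14057 and 13690 genes reached 1 TPM. Pan-neuronal markers summed to 9332 and 11528 TPM with all 10 detected, glutamatergic markers to 626 and 804 TPM with all 8 detected, and layer 5 markers to 2372 and 4856 TPM with all 8 detected. Markers of other cells were present too, and the GABAergic sum exceeded the glutamatergic sum in each library. The median GABAergic marker stood at 43.6 and 11.05 TPM, and the median glutamatergic one at 34.3 and 36.2 TPM. The levels are therefore those of mixed RNA, not of pyramidal neurons alone. GABAergic markers summed to 3932 and 1537 TPM (11 and 10 of 11 detected), astrocyte markers to 646 and 762 TPM (all 12 detected), oligodendrocyte markers to 583 and 722 TPM (all 10 detected) and oligodendrocyte precursor markers to 41.8 and 22.6 TPM (7 and 5 of 7 detected). Microglial markers summed to 151 and 58.7 TPM (9 and 7 of 9 detected), endothelial markers to 114 and 103 TPM (6 and 5 of 7 detected, Kdr under 1 TPM in both) and mural markers to 20.3 and 35.5 TPM (3 and 4 of 5 detected). The choroid plexus and ependyma markers Ttr, Folr1, Kl and Foxj1 were all under 1 TPM. In pooled cells, fewer cells of a type and less RNA per cell cannot be told apart.

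Sequences are shown for 3 genes whose transcripts bear on how the levels can be read. For Atp2a2, the SERCA2 gene, the table of transcripts divided the reads between forms that encode different ends of the protein. The long form, known as SERCA2b, is the widespread one and the short form, SERCA2a, is known from heart and slow skeletal muscle. The stretches below are the last coding bases with the stop codon in GENCODE M21 (GRCm38, minus strand), with the bases shared by both forms in lower case and those that differ in capitals. Atp2a2-201 lies at chr5:122457151-122457347 and Atp2a2-202 at chr5:122454291-122457347, across an intron.
Atp2a2-201: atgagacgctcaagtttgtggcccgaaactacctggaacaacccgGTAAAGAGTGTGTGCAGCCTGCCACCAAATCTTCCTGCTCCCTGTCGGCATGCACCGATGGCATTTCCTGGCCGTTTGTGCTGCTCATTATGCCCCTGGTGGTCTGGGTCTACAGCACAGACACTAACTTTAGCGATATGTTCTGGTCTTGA
Atp2a2-202: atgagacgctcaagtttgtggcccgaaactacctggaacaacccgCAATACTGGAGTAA

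For Slc12a5, the KCC2 gene, most of the level was assigned to a transcript with a retained intron. The stretch below (chr2:164997070-164997139, plus strand, GENCODE M21) is where it leaves the intron, in lower case, and enters an exon that the protein-coding transcript also holds, in capitals.
Slc12a5-205: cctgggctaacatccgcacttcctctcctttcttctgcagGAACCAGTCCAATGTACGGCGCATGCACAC

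For Atp2b2, the PMCA2 gene, the 2 leading transcripts begin at different annotated starts with the same number of coding bases. The 120 bases before each RefSeq start (GRCm38.p6, minus strand) are given with each CG in capitals. The upstream start, chr6:114042081-114042200, lies 54 bases from the first base of Atp2b2-203, and the downstream start, chr6:113891540-113891659, is that of Atp2b2-201.
Upstream start: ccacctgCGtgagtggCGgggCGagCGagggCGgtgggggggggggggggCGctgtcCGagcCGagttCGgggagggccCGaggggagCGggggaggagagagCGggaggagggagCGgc
Downstream start: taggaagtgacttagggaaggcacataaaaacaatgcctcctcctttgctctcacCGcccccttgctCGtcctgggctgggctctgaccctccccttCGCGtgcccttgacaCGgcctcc

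The sodium-potassium pump was represented by Atp1b1 (ENSMUSG00000026576.8, chromosome 1, 164437109 to 164458355, minus strand, coordinates on GRCm38, the build also called mm10), whose product carries the alpha subunit to the membrane. Its level was 1166 TPM in replicate 1 and 1420 TPM in replicate 2 (1293 ± 180, SD, n = 2), from 57770 and 78724 reads. This was above 99.7% of protein-coding genes in each library. Among the beta subunit genes Atp1b1 held 95.1% of the summed TPM in replicate 1 and 95.03% in replicate 2. Atp1b3, a widely expressed beta subunit, stood at 47.7 and 45.7 TPM and Atp1b2, the beta subunit known from astrocytes, at 12.6 and 28.6 TPM.

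Small FXYD proteins tune the pump. Fxyd7, a brain form, stood at 180 and 238 TPM and Fxyd6 at 86.5 and 11.0 TPM. In the list of 14 pump genes 11 were detected in both libraries. The end of Atp1b1 overlaps Nme7 on the other strand by 617 bases. Nme7 had 571 and 833 reads, and whether strand was used in the counting is not given in the labels.

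**Figure D1:**
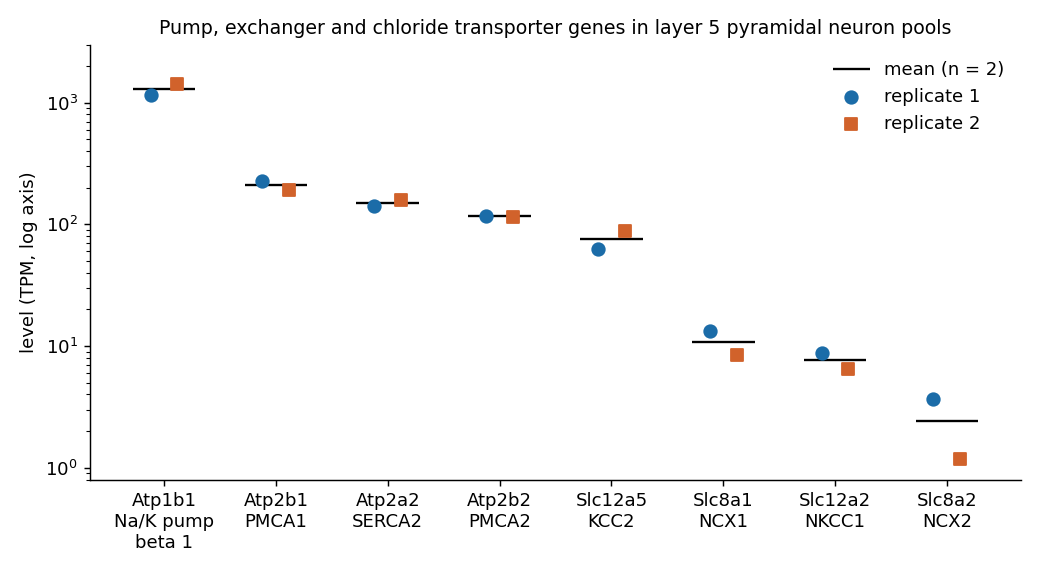
Level of each of the 8 genes in TPM (log axis) in replicate 1 (circles) and replicate 2 (squares), with the mean of the 2 libraries as a line, ordered by the mean. Atp1b1 stood at 1166 and 1420 TPM, and the libraries overlapped between neighbours for Slc8a1 and Slc12a2.

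Atp2b1 and Atp2b2 encode PMCA pumps, which expel calcium from the cell. Atp2b1 (ENSMUSG00000019943.9, chromosome 10, 98914406 to 99026143, plus strand) encodes the widespread PMCA1 and reached 226.9 TPM in replicate 1, against 192 TPM in replicate 2 (209 ± 24.7, SD, n = 2), from 31908 and 30216 reads. Atp2b2 (ENSMUSG00000030302.12, chromosome 6, 113743831 to 114042613, minus strand) encodes PMCA2, a form known from neurons and hair cells, and stood at 118 and 115 TPM (117 ± 1.78), from 16185 and 17790 reads. Atp2b1 was higher than Atp2b2 in each library. Atp2b2 overlaps antisense genes, namely Gm15082, with 0.99 TPM in replicate 1 and 0.72 in replicate 2, and Gm15083, with 0.04 in replicate 1 and 1.08 in replicate 2.

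The difference between Atp2b1 and Atp2b2 in log2(TPM + 1) was 0.94 in replicate 1 and 0.73 in replicate 2 (0.83 ± 0.15, SD, n = 2). Because the smallest exact two-sided p from 2 libraries is 0.5, differences are given with their SD and were not tested. Within the 4 PMCA genes, Atp2b1 held 61.9% and 60.01% of the summed TPM and Atp2b2 held 32.2% and 36.1%. The other PMCA genes were lower, with Atp2b3 at 5.40 and 6.97 TPM and Atp2b4 at 16.3 and 5.60 TPM. Genes of the PMCA partner subunits were higher than any PMCA gene, with neuroplastin (Nptn) at 678 and 685 TPM and basigin (Bsg) at 529 and 689 TPM. Both proteins also have other partners in the membrane.

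Endoplasmic reticulum uptake was represented by Atp2a2 (ENSMUSG00000029467.11, chromosome 5, 122453513 to 122502225, minus strand), with 142 TPM in replicate 1 and 159 TPM in replicate 2 (151 ± 12.1, SD, n = 2), from 12155 and 15211 reads. It held 99.99% of the summed SERCA level in replicate 1 and all of it in replicate 2. Atp2a1, the SERCA of fast muscle, had no reads, and Atp2a3 had 2 and 0 reads. A count of 0 allows up to 3 reads. The SERCA inhibitors of muscle were near the detection limit, with phospholamban (Pln) at 1.80 and 0.44 TPM and sarcolipin (Sln) at 0.60 and 1.07 TPM. Atp2c1, the calcium and manganese pump of the Golgi, stood at 40.05 and 30.3 TPM.

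The 3 NCX genes, Slc8a1, Slc8a2 and Slc8a3, summed to 20.3 TPM in replicate 1 and 12.9 TPM in replicate 2. That was below the sums of the SERCA and PMCA genes in each library. Slc8a2 (ENSMUSG00000030376.7, chromosome 7, 16129826 to 16161063, plus strand), the brain form NCX2, was measured at 3.65 TPM in replicate 1 and at 1.18 TPM in replicate 2 (2.42 ± 1.75, SD, n = 2), from 302 and 109 reads. Slc8a1 (ENSMUSG00000054640.10, chromosome 17, 81373105 to 81738377, minus strand), the widespread NCX1 known best from heart, stood at 13.3 and 8.46 TPM (10.9 ± 3.41), from 738 and 526 reads. Slc8a2 was lower than Slc8a1 in each library.

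Slc8a2 minus Slc8a1 in log2(TPM + 1) was -1.62 in replicate 1 and -2.12 in replicate 2 (-1.87 ± 0.35, SD, n = 2). The third exchanger gene, Slc8a3, stood at 3.33 and 3.22 TPM. Slc8a1 held 65.5% and 65.8% of the summed TPM of the 3 genes, Slc8a2 18.0% and 9.18% and Slc8a3 16.4% and 25.0%. The difference between Slc8a2 and Slc8a1 was sensitive to the length used. The 3 Slc8a1 models behind the counts were 2877 to 2913 bases long, all multiples of 3, which is close to the coding length of 2910, while exons of the gene in GENCODE M21 cover 18807 bases. Reads from the long untranslated part of Slc8a1 could not enter its count. Per kilobase of those exons Slc8a2 exceeded Slc8a1 by 0.08 ± 0.41 in log2, which lay within the spread.

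The PMCA genes summed to 18.1 times the NCX genes in replicate 1 and 24.9 times in replicate 2 (21.5 ± 4.80, SD, n = 2), with the same limit on Slc8a1. The potassium-dependent exchanger gene Slc24a2 (NCKX2), a neuronal form that also moves calcium against sodium, stood higher than any NCX gene at 85.2 TPM in each library. Slc24a3 stood at 11.9 and 32.5 TPM. Slc24a5, an exchanger of pigment cells, was listed at 35.2 and 26.9 TPM with a posterior SD of 89.2 on its 1304 reads in replicate 1, so part of its reads was not placed uniquely. In this list 7 of 9 genes were detected in both libraries.

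**Figure D2:**
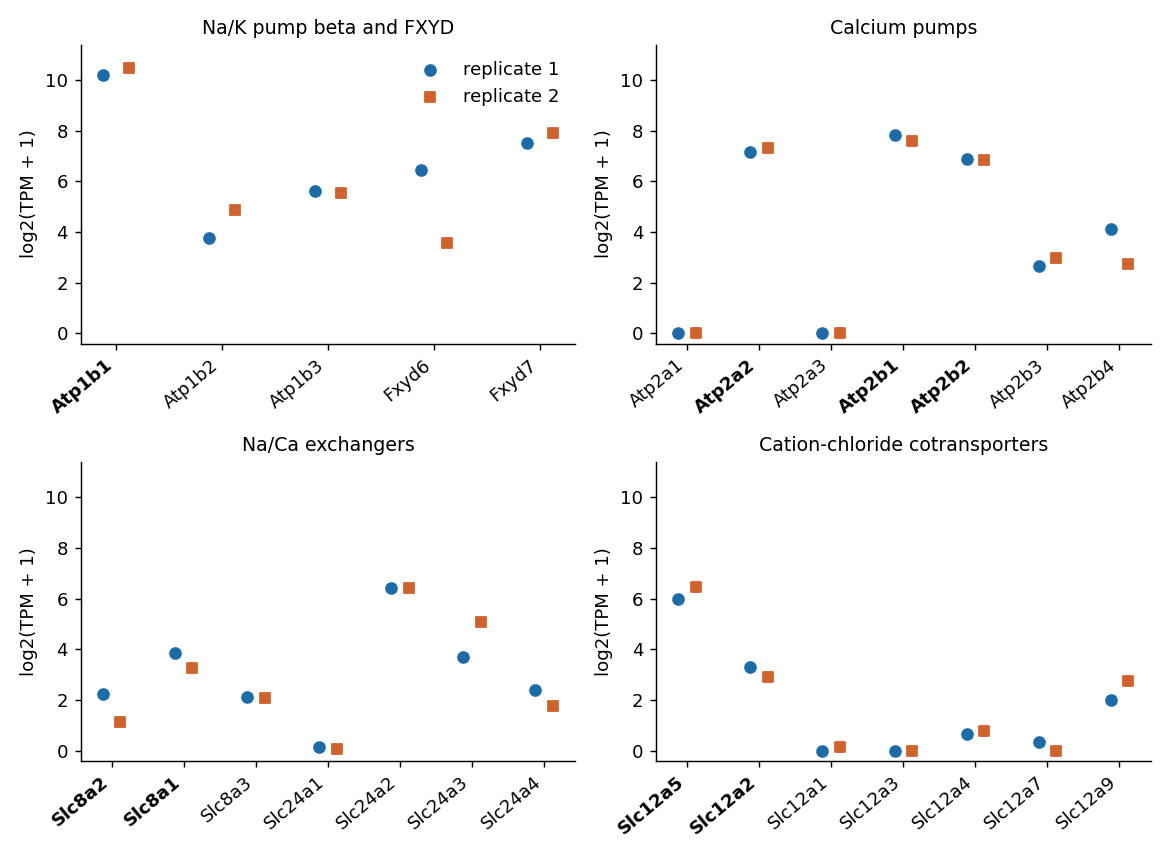
Level of each gene and of related genes as log2(TPM + 1) in replicate 1 (circles) and replicate 2 (squares), with the 8 genes described here in bold. Atp2a2 was the SERCA gene above 1 TPM, Atp2b1 and Atp2b2 stood above Atp2b3 and Atp2b4, and Slc24a2 stood above the Slc8a genes.

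Chloride transport was represented by Slc12a5 and Slc12a2. Slc12a5 (ENSMUSG00000017740.12, chromosome 2, 164960802 to 164999731, plus strand) encodes KCC2, the extruder of mature neurons, with 62.9 TPM in replicate 1 and 87.7 TPM in replicate 2 (75.3 ± 17.6, SD, n = 2), from 3799 and 5831 reads. Slc12a2 (ENSMUSG00000024597.10, chromosome 18, 57878678 to 57946821, plus strand) encodes NKCC1 and stood at 8.74 and 6.52 TPM (7.63 ± 1.57), from 1123 and 938 reads. Summed over all transcripts, Slc12a5 was 7.20 and 13.5 times Slc12a2, and their difference in log2(TPM + 1) was 2.71 and 3.56 (3.14 ± 0.60). These ratios depend on the effective length by which TPM divides the reads. It was 3020 and 2968 bases for Slc12a5, against 6421 for Slc12a2 in each library. With the 5925 bases of the protein-coding model Slc12a5-201, the same reads would give a lower Slc12a5 level and a smaller ratio.

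The order of Slc12a5 and Slc12a2 turned round when only transcripts annotated as protein-coding were counted, which replicate 1 allows. On that basis Slc12a5 stood at 5.04 TPM and Slc12a2 at 8.74 TPM, a log2 difference of -0.69 without a replicate. Of the Slc12a5 level in replicate 1, 87.1% was held by the retained-intron transcript Slc12a5-205, with 3179 reads, and 8.02% by the protein-coding Slc12a5-201, with 598 reads. The posterior SDs of these counts, 19.9 and 21.8 reads, hold for the models as annotated. They do not show which reads came from protein-coding RNA, since most bases of Slc12a5-205 also lie in exons of Slc12a5-201. Slc12a2 had 1 model, annotated as protein-coding, so counting only such transcripts could lower Slc12a5 alone.

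Slc12a5-205 is a short model of the end of the gene. In GENCODE M21 it has 2 exons, and 83.2% of its 2996 bases also lie in exons of Slc12a5-201, most of them in the last exon, which leaves 504 bases of its own. It held 1059 reads per kilobase, against 99.2 for Slc12a5-201. Which of these reads came from protein-coding RNA was not tested. The effective length of a gene, which for 99.8% of 9311 genes with several transcripts lay within 1% of the mean of its transcripts weighted by TPM, was 3020 bases for Slc12a5 in replicate 1 and 2968 in replicate 2. Slc12a5-201 alone would give 5925. If the other transcripts are those listed in replicate 1, the value in replicate 2 allows Slc12a5-201 between 2.19% and 46.8% of the level, so there too most of it lay on other, shorter transcripts. The first exons that distinguish KCC2a and KCC2b, the forms made from the upstream and downstream start, are not part of Slc12a5-205.

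**Figure D3:**
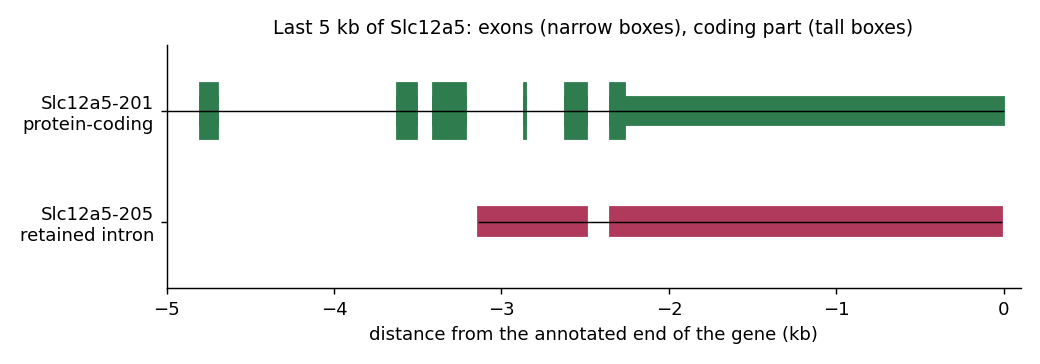
Exons of Slc12a5-201 (upper row) and Slc12a5-205 (lower row) over the last 5 kb of the gene, by distance from its annotated end, with tall boxes for the coding part and narrow boxes for other exon sequence. The last exon is common to both, and Slc12a5-205 adds 504 bases that Slc12a5-201 does not hold.

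Of the 9 genes in the cotransporter list 4 were detected in both libraries. Slc12a4, encoding KCC1, had 0.56 TPM in replicate 1 and 0.71 in replicate 2. Slc12a7, encoding KCC4, had 0.27 TPM in replicate 1 and no reads in replicate 2. The orphan member Slc12a9 had 3.02 and 5.63 TPM. NKCC1 is known from glia, endothelium and choroid plexus as well as neurons. Beside Slc12a2, the summed astrocyte, precursor and endothelial markers given above were present in each library and the choroid plexus markers were under 1 TPM. The part of such cells in its level was not tested.

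Genes of the kinase pathway that phosphorylates these cotransporters, which restrains KCC2 and activates NKCC1, were detected in each pool. The WNK kinase gene Wnk1 stood at 42.6 and 46.6 TPM, Stk39, encoding the downstream kinase SPAK, at 37.7 and 38.5 TPM, and its scaffold Cab39 at 41.6 and 51.6 TPM. Of 8 genes in this list 7 were detected in both libraries. Among CLC channels and exchangers, 5 of 7 were detected in both, led by the endosomal exchangers Clcn3 at 60.9 and 64.9 TPM and Clcn4 at 57.01 and 65.6 TPM, with the channel Clcn2 at 9.14 and 14.3 TPM. Of 10 bicarbonate transporter genes 6 were detected in both, with Slc4a10 at 54.01 and 46.7 TPM, Slc4a8 at 24.6 and 17.4 TPM and Slc4a3, which exchanges chloride for bicarbonate, at 9.15 and 15.8 TPM. Among sodium-proton exchanger genes 5 of 8 were detected in both, with the endosomal exchanger genes Slc9a9 at 7.84 and 5.16 TPM and Slc9a7 at 6.65 and 5.27 TPM.

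In order of mean TPM the genes ran Atp1b1, Atp2b1, Atp2a2, Atp2b2, Slc12a5, Slc8a1, Slc12a2 and Slc8a2. For 6 of the 7 neighbouring pairs both libraries of the higher gene lay above both libraries of the lower one. The exception was Slc8a1 and Slc12a2, at 8.46 to 13.3 TPM and 6.52 to 8.74 TPM. With reads per kilobase of all annotated exons, scaled to library size, 5 pairs lay apart, Atp2a2 (mean 90.5) came before Atp2b1 (82.8), and Slc8a1 came last. The longest models behind the counts were shorter than these exons, at 7130 against 15218 bases for Atp2b1 and 4491 against 6081 for Atp2a2. As for Slc8a1, that scale therefore includes sequence outside the longest model, and the changed order cannot be read as a second measure of level.

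The transcripts behind the other 7 levels were mainly annotated as protein-coding. Atp1b1-201 held 99.8% of the Atp1b1 level. Atp2b1, Slc12a2 and Slc8a2 had a single model each, and these and all 3 Slc8a1 models are annotated as protein-coding. The type was therefore fixed in advance for these genes. Across protein-coding genes at 1 TPM or more in replicate 1, 12% of 11878 had a leading transcript not annotated as protein-coding, and 1 of the 8 genes, Slc12a5, is close to that share.

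Atp2a2 was divided between the forms whose coding ends are printed above. In replicate 1 the SERCA2a transcript Atp2a2-202, with 998 codons, held 69.7% of the level and 8367 reads, and the SERCA2b transcript Atp2a2-201, with 1044 codons, held 30.3% and 3788 reads, each with a posterior SD of 20.7 reads. The effective lengths allow the same split to be read in replicate 2, where Atp2a2-201 came to 26.1% if the third model held nothing, as it did in replicate 1. The 2 models also differ in where they end: 791 of the 3984 bases of Atp2a2-202 lie outside the exons of Atp2a2-201. All 3984 lie in exons of Atp2a2-203 as modelled in GENCODE M21, with 5674 bases. That transcript is annotated for nonsense-mediated decay and carries the coding length of SERCA2b. The models behind the counts differed from those in GENCODE M21. Atp2a2-202 was longer there, at 4314 bases, and Atp2a2-203 shorter, at 3534, so that model could not hold all of Atp2a2-202. A split between transcripts with different ends therefore does not measure the split between the 2 proteins.

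Atp2b2 had 2 leading transcripts in replicate 1. Atp2b2-203, from the upstream start, held 55.6% of its level and 9093 reads, with a posterior SD of 340, and Atp2b2-201, from the downstream start, held 35.3% and 5792 reads, with a posterior SD of 348. Each has 3594 coding bases, and 95.9% of the bases of Atp2b2-201 lie in exons of Atp2b2-203 in GENCODE M21, where Atp2b2-203 is longer (8877 bases) than in the counts (7033). The 250 bases before the upstream start hold 16 CG dinucleotides and 69.6% G and C, and those before the downstream start hold 6 and 55.6%. Over 32851 RefSeq promoters the medians were 6 and 52.4%, and 92.1% held a CG, a motif that reads the same on both strands. Promoter windows were used for 6 of the genes, 10 in all, and any on chromosome 18, where Slc12a2 lies, were left out. Among these 10 the highest CG counts were the 43 and 41 of Atp2b1, against 24 for Atp1b1.

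For Slc8a1, all 738 reads of replicate 1 were placed on Slc8a1-202, with a posterior SD of 130. The other 2 models, each 2913 bases long, were listed at 0 with posterior SDs of 110 and 48.4 reads, so the choice among these alternatively spliced forms was not settled by the reads. The effective length of the gene was 2778 bases in each library, that of Slc8a1-202.

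**Figure D4:**
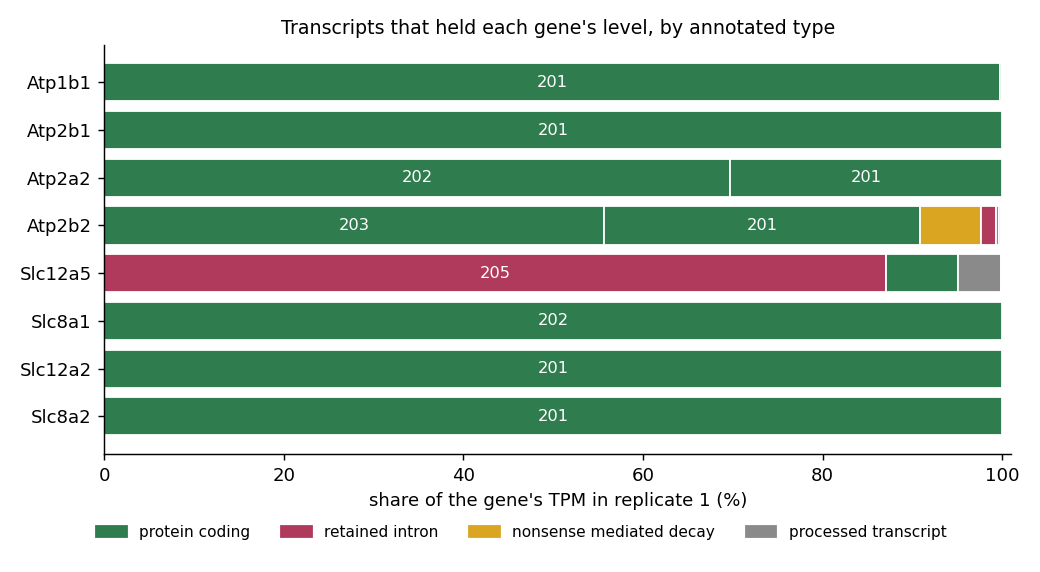
Share of each gene's TPM held by its transcripts in replicate 1, coloured by annotated type, with the transcript number where the share is at least 10%. Slc12a5 is the gene led by a retained-intron transcript (87.1%), and Atp2a2 and Atp2b2 are divided between 2 protein-coding transcripts each.

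Between the libraries, 7 of the 8 genes reached a mean of 10 CPM, reads relative to the scaled library size, the level above which ratios were compared. None of the 7 differed at least 2-fold, against 4.46% of 9190 genes. Their median absolute log2 ratio was 0.29, against 0.26 over all genes at a mean of 10 CPM or more. Genes matched to them in level were not compared. The ratio has 1 library on each side and no replicate check, and intervals are exact 95% intervals that cover counting error only.

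Slc8a2 was below that level and differed most. At a mean CPM of at least 1, where 10.4% of 14330 genes differed at least 2-fold, it was the only one of the 8 to do so, with 3.10 times the CPM in replicate 1 of that in replicate 2 (interval 2.48 to 3.89). Slc8a1 stood at 1.57 times (1.40 to 1.76) and Slc12a2 at 1.34 times (1.23 to 1.46). Atp2b1 stood at 1.18 times (1.162 to 1.199) and Atp2b2 at 1.02 times (0.996 to 1.04). Atp2a2, Atp1b1 and Slc12a5 were lower in replicate 1, with Atp2a2 at 0.893 times (0.872 to 0.915), Atp1b1 at 0.820 times (0.812 to 0.829) and Slc12a5 at 0.728 times (0.699 to 0.759). Added control RNAs, the spike-ins, made up 4.28% of the reads in replicate 1 and 5.32% in replicate 2. With spike-in totals as the scale, which moved the median log2 ratio of all genes by 0.36, Atp1b1 and Atp2a2 were instead higher in replicate 1, at log2 ratios of 0.08 and 0.20.

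Other genes named here with a mean of at least 10 CPM also differed at least 2-fold. Fxyd6 (7.86 times, 7.09 to 8.73) and Atp2b4 (2.99 times, 2.77 to 3.22) were higher in replicate 1. Atp1b2 (0.443 times, 0.405 to 0.484) and Slc24a3 (0.371 times, 0.343 to 0.401) were lower there. The summed GABAergic, microglial, oligodendrocyte precursor and endothelial markers were higher in replicate 1, the last only slightly, as given above. The summed pan-neuronal, glutamatergic, layer 5, astrocyte, oligodendrocyte and mural markers were lower there. Medians went the other way for endothelial (2.28 and 4.96 TPM), astrocyte (16.3 and 15.1 TPM) and mural markers (4.07 and 2.74 TPM). The part of any of these cells in the differences was not tested.

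**Figure D5:**
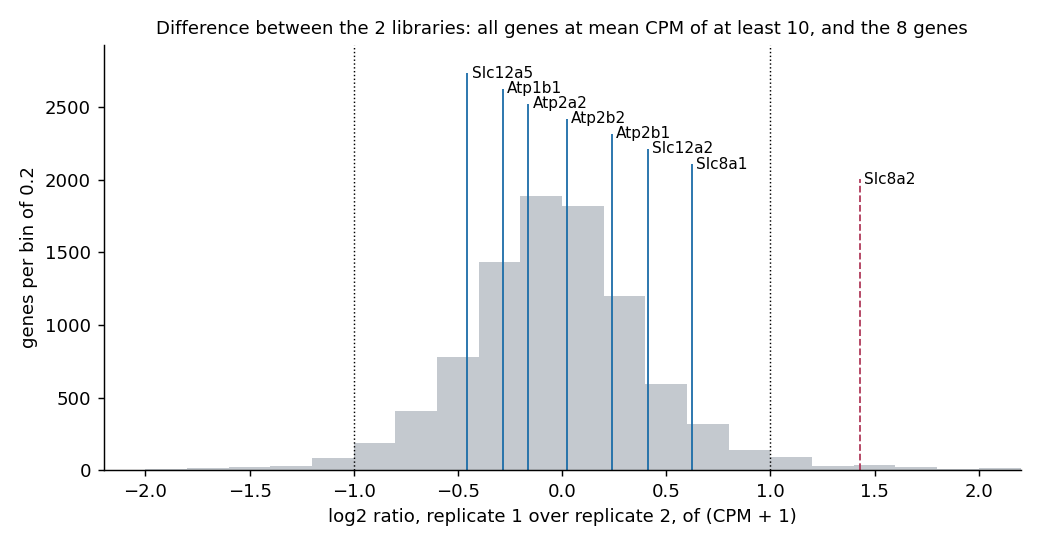
Number of genes (grey bars, mean CPM of at least 10) by log2 ratio of (CPM + 1), replicate 1 over replicate 2, with the far tails left out. Solid lines mark 7 of the genes, the broken line marks Slc8a2 at 1.43, which lay below that CPM, and dotted lines mark 2-fold differences.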

How the data were processed

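RNA of pooled cells was measured in 2 libraries, made from full-length copies by a Smart-seq type protocol per the labels' protocols. Per the file headers, the deposited gene tables give an expected count (estimated reads per gene, not normalized) and TPM, scaled per effective length to a fixed sum over all entries, spike-ins included. The deposited transcript table, used for replicate 1, gives the percent of its gene's TPM that each transcript holds. Per the texts deposited with them, the tables were made on mm10 with GENCODE M4; the sources used here name no aligner, quantifier or strand setting. Symbols, transcript types and coordinates came from GENCODE M21 on the same build, by identifier without version; 42462 of 43346 gene identifiers matched. The 96 spike-ins and 26248 numeric entries stayed out of library sizes.

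Expected counts were rounded and scaled by TMM (edgeR 4.0.16, R 4.3.3). Ratios were log2 of (CPM + 1), replicate 1 over replicate 2, for genes whose mean CPM was 10 or more. Folds written as times are ratios of the scaled counts without the added 1, so they differ somewhat from the log2 ratios used for the 2-fold calls. Their intervals are exact conditional binomial at 95%. Detection was TPM of at least 1. Alternatives were DESeq2 1.42.0 size factors, total and spike-in scaling, other minimums and pseudocounts, posterior mean TPM, reads per kilobase of exon union, and each library alone. Other values used Python 3.11.15, pandas 2.3.3, numpy 2.4.6 and scipy 1.17.1.

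The genes and lists were chosen with earlier results of these data known. Named beside the 8 genes are paralogs and the 3 highest other genes of each list; some of these are not reported here. Reads carry no molecular identifiers. A likeness of pattern was not computed, since 2 libraries give 1 ratio per gene. The reading of effective lengths was added after the values were seen.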

Additional observations from a re-analysis of the deposited data

How the results depend on the processing

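Slc12a5 minus Slc12a2 in log2(TPM + 1), 3.14, ranged from 2.71 to 3.56 over single libraries, was 2.47 with reads per kilobase of exon union and -0.69 with protein-coding transcripts only, an alternative chosen after seeing the data that leaves out Slc12a5-205. Atp2b1 minus Atp2b2, 0.83, ranged from 0.73 to 0.94 over single libraries and was 0.59 and 1.07 under the same alternatives. Slc8a2 minus Slc8a1, -1.87, ranged from -2.12 to -1.62, was -2.29 with a pseudocount of 0.1 and 0.081 with exon union, which divides counts on coding-length models by all exons. The alternatives not listed moved these differences by less than 1 SD. At TPM of at least 10 in both libraries 5 of the 8 genes were detected. With mean CPM of at least 1, or no minimum, 1 gene (Slc8a2) in place of 0 passed 2-fold. The other scalings and the smaller pseudocount gave 0. With spike-in totals the log2 ratios of Atp1b1 and Atp2a2 reversed to 0.077 and 0.20. Rescaling TPM to annotated genes raised all 8 levels in similar proportion, such as Atp1b1 from 1293 to 1428 and Atp2b2 from 117 to 129. Of the 8 levels 6 stayed within 1 SD, a count that reflects the size of each gene's SD. No paired analysis was possible because there is 1 group. Transcript shares come from 1 library.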
